A study of Rattus norvegicus with 10 samples.

Results

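The genes described here are 54 genes of mitosis, among them the mitotic kinases, the kinesin motors, the spindle checkpoint and the kinetochore, and they were chosen by name from their known roles. A member was measured where a probe of the array carries its symbol in the platform annotation, and its brightest probe over all 10 arrays stood for it. By this rule 42 of the 54 members were measured, of 13336 genes with a symbol and 22517 probes in all. The 12 members not analysed here, for want of a probe named for them, are Nek2, Birc5, Espl1, Pttg1, Kif4a, Cenpe, Spc24, Anln, Smc4, Ncaph, Ncapg and Mki67.

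Bone cells were isolated from the calvaria (skull vault) and from the ulna (a forelimb bone) of 5 male CD rats, and each animal gave 1 skull bone-derived culture (S-Bdc) and 1 limb bone-derived culture (L-Bdc). Per the labels all 10 cultures were osteoblasts at passage 3 and 95% confluence, and none received a treatment. All were third-digest cells grown in medium with serum, and the age of the animals was not given in the sources used here. RNA of each culture was measured on 1 array of the Illumina rat BeadChip, and the comparison of the sites within rats asks how the same genes are used by bone cells of skull and limb. Each array measured the pooled RNA of a culture, so fewer dividing cells and less RNA per dividing cell cannot be told apart.

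The median raw signal ran from 40.6 to 48.1 units over the arrays, and 12736 probes exceeded background on 3 arrays or more. The bone matrix genes Col1a1, Col1a2, Sparc and Spp1 were above background on all 10 arrays, with Col1a1 at 0.58 ± 0.06 and Spp1 at -1.81 ± 0.12 between the sites. Of the other osteoblast genes measured, Alpl and Ibsp were above background on all 10 arrays. The late osteoblast gene Bglap (osteocalcin) was above background on 4 arrays, and the osteoblast factor Sp7 on 3. None of Alpl, Ibsp, Bglap and Sp7 was called between the sites. Of 21 measured markers of other cells, Ptprc and Calcr (blood and osteoclast), Cdh5 and Vwf (endothelium), Myog and Ckm (muscle), Col2a1 (cartilage), Adipoq and Lep (fat) and Hbb (red cells) were above background on 0 arrays. The muscle genes Myod1 and Acta1 were above it on 3 and 5 arrays, the marrow gene Mpo on 7, the macrophage gene Itgam on 2 and the endothelial gene Tek on 1. Cd14, Ctsk, Des, Acan, Fabp4 and Cd3e were above it on all 10, and 0 of the 21 were called between the sites. Values below are log2 signals after background correction, with an offset of 50 added, and normalisation between arrays. On this scale the change of a dim probe is understated. Differences are S-Bdc minus L-Bdc (n = 5 pairs) with limma's moderated standard error (SE), tested by limma with the rat as a block. That SE draws on the spread of all probes as well as the gene's own. It can therefore be smaller than the spread of the gene's 5 pairs would give. A gene was called where its p-value, adjusted by Benjamini-Hochberg over all 22517 probes, was under 0.05.

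Entry into mitosis is driven by cyclin-dependent kinase 1 (Cdk1) bound to cyclins A and B. Aurora and Polo-like kinases then build the spindle, kinesin motors move and order its microtubules, and kinetochores tie the chromosomes to it. The spindle checkpoint holds back the anaphase-promoting complex until every chromosome is attached, after which the chromatids part and the cell divides. Most of these genes are transcribed late in the cell cycle and are silent in resting cells. In human and mouse cells their promoters are known for a CHR element (TTTGAA), read by the DREAM and MuvB complexes with B-Myb and FoxM1, and for CCAAT boxes bound by NF-Y.

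Windows of 250 bases before to 50 bases after the gene start, from RefSeq (GRCr8), were found for 35 of the 42 measured members. TTTGAA on either strand stood in 25 of these 35 windows (71.4%), against 18.1% of all 27457 windows and 15.3% of the 10992 windows of genes on the array. CCAAT on either strand stood in 24 (68.6%), against 37.7% of all windows and of those of array genes, and at least 2 such boxes in 18 (51.4%, against 11.5% and 12.3%). Both motifs were held by 19 (54.3%, against 7.25% and 6.22%). The G and C rich letters GGCGG were in 31 (88.6%, against 48.8% and 65.5%), and the E2F letters TTTCGCGC in 1 (2.86%, against 0.342% and 0.509%). These letters describe the windows only. No binding was measured in the study's arrays.

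The 150 bases before the start of 6 members are shown, 5′ to 3′ on the gene's strand. Those of Cdk1, Cdca8, Ncapd2, Kif22 and Cdc20 were picked from called members that held both motifs in these bases. They therefore do not stand for the called members at large. Called members whose windows lacked TTTGAA were Kif11, Bub1, Mybl2, Aurka and Kif2c. Capitals mark TTTGAA and CCAAT, or TTCAAA and ATTGG where the motif lies on the other strand. The windows are those of Cdk1 (chr20:19265143-19265292, plus strand), Cdca8 (chr5:142483200-142483349, minus strand), Ncapd2 (chr4:159677939-159678088, minus strand), Kif22 (chr1:191080879-191081028, minus strand), Cdc20 (chr5:137255800-137255949, minus strand) and Ccnb1 (chr2:33655226-33655375, minus strand).
Cdk1: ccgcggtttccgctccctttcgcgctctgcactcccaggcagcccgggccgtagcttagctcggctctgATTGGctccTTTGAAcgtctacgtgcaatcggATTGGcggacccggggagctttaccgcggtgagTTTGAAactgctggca
Cdca8: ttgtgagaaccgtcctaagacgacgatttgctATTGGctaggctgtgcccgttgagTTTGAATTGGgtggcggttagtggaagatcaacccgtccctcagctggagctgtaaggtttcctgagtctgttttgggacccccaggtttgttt
Ncapd2: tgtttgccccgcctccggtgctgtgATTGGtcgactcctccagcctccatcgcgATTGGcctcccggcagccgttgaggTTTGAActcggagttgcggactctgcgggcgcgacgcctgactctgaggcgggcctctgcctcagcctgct
Kif22: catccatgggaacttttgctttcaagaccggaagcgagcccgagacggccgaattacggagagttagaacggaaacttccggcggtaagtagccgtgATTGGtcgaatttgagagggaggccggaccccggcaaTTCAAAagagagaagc
Cdc20: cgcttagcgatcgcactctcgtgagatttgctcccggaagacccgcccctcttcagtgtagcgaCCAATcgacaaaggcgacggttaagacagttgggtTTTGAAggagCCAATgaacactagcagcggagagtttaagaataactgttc
Ccnb1: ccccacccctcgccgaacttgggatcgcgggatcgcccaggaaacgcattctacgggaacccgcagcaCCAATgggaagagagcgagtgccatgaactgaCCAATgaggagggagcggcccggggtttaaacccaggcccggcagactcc
Cdk1 held TTTGAA at -72 and -16 from the gene start, and CCAAT boxes at -81 and -49, which are 32 bases apart. In Cdca8 the TTTGAA at -94 shared 1 base with the CCAAT box at -89. Ncapd2 carried boxes at -125 and -96 before a TTTGAA at -71. Ccnb1 was added by name. Its probe gave no signal above background, so no site difference of this gene can be set beside its window. The Ccnb1 window had boxes at -82 and -50, again 32 bases apart, and no TTTGAA. Among the members with a window, TTTGAA was present in 21 of the 26 called and in 4 of the 9 not called, and CCAAT in 17 and 7. Those not called and without TTTGAA were Bub3, Ccnb1, Kif18a, Cdc25b and Kif20a. The probes of Bub3, Ccnb1 and Kif18a were above background on 0 arrays, and Kif20a differed by -0.62 (adjusted p = 0.0524). Whether TTTGAA goes with the site difference was not tested.

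Genes of mitosis were lower in S-Bdc than in L-Bdc at every step from entry to cell division. These are RNA levels of near-confluent cultures and do not measure a growth rate. In a separate growth assay, the paper reports higher cell numbers in S-Bdc than in L-Bdc some days after plating at equal density. L-Bdc were still proliferating on the following day of that assay. Cell number was judged there from the dye product of a reaction in the wells (MTS assay). The paper reads this as faster proliferation of skull cells, the opposite direction to the RNA levels here. It also reports larger cell volumes in S-Bdc than in L-Bdc. How the RNA levels relate to that growth was not tested. Of the 42 measured members 33 were called lower, against 4.68% of all probes, and 0 were called higher, against 4.43%. Among the 12736 probes above background on at least 3 arrays these shares were 8.25% and 7.79%. At an unadjusted p under 0.05, 36 were lower and 0 higher, and the share of all probes at that threshold was not counted. The differences of the 42 ran from -0.99 to 0.06 with a median of -0.53, against -0.00 over all probes, and 24 members lay at -0.5 or below, against 1.51% of probes. In 30 members the S-Bdc signal was the lower of the pair in all 5 rats (8.76% of all probes), and in 23 the 5 S-Bdc values lay wholly below the 5 L-Bdc values (3.56%). In 37 members the signal was above background on all 10 arrays. On the linear scale of the authors' processed intensities, the mean of L-Bdc over that of S-Bdc ran in these 37 from 1.19 for Cdc25b to 2.3 for Foxm1.

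The count of calls differed between ways of processing the same arrays. With median scaling 22 members were called lower and without normalisation between arrays 13. From the authors' processed intensities 10 were called lower after adding 50 units, and 5 with a floor of 16 units and quantile normalisation. In the same order the medians were -0.52, -0.52, -0.59 and -0.76, with 0 called higher. Of all 22517 probes, 559, 357, 353 and 84 were called lower in that order, against 1053 with the processing used above. Cyclic loess normalisation gave 32 members called lower. An offset of 16, no background correction and a variance trend gave 36 each. Under these settings 984 to 1126 of all probes were called lower. With dim probes filtered out, 35 of 38 members and 1097 of 12736 probes were called lower. The count of members lower in all 5 rats was 21 with median scaling and 20 without normalisation. The share of all probes lower in all 5 rats was not counted at these settings.

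**Figure D1:**
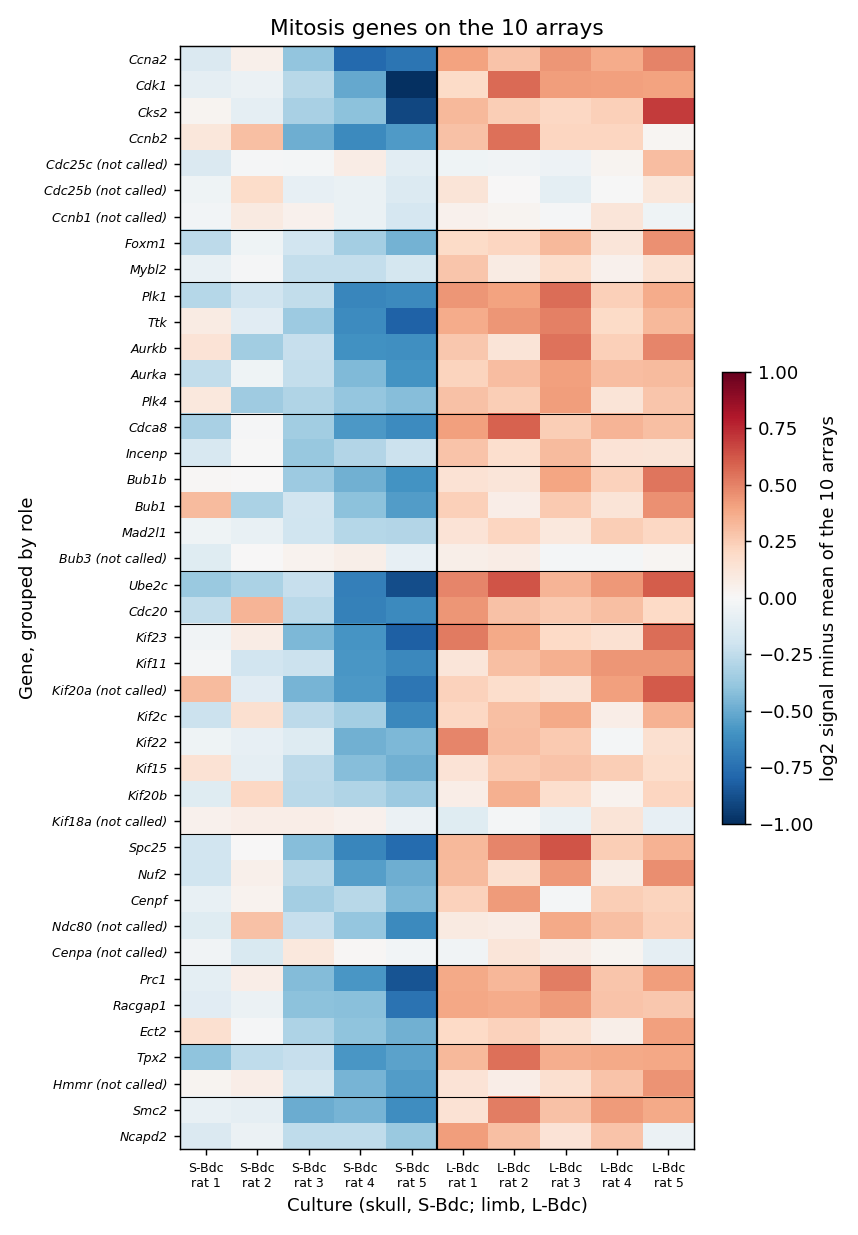
Log2 signal of each of the 42 measured members on each of the 10 arrays (columns), minus that gene's mean over the arrays (blue below, red above), with genes grouped by role. The S-Bdc columns of rats 3, 4 and 5 are blue for most genes and all 5 L-Bdc columns are red for most genes, while the faint rows at Ccnb1, Bub3, Kif18a and Cenpa are probes near background.

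The cyclin and Cdk1 group, which starts mitosis, had 4 of 7 members lower. Ccna2, the gene of cyclin A2, read 9.00, 9.20, 8.75, 8.37 and 8.42 in S-Bdc of rats 1 to 5, and 9.55, 9.43, 9.59, 9.52 and 9.64 in L-Bdc. All S-Bdc values were below all L-Bdc values, and the skull cultures of rats 4 and 5 were the lowest. Its difference was -0.80 ± 0.13 (adjusted p = 0.00391). Cdk1 itself read 10.57, 10.60, 10.38, 10.15 and 9.62 against 10.85, 11.23, 11.08, 11.07 and 11.06, again without overlap, a difference of -0.79 ± 0.13 (adjusted p = 0.00489). Cks2, a small subunit bound by Cdk1, fell by 0.69 (SE 0.16, adjusted p = 0.0272). That call was lost without rat 3 (adjusted p = 0.0804) or rat 4 (0.0943). Ccnb2, the gene of cyclin B2, fell by 0.51 (SE 0.10), with overlap between the sites.

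The other 3 members of that group were not called, and their probes were dim. Ccnb1, the gene of cyclin B1, was above background on 0 arrays, so its log2 signals (S-Bdc 5.92, 6.04, 5.99, 5.88 and 5.78, L-Bdc 5.99, 5.98, 5.94, 6.07 and 5.91) give only an upper bound on its level. Cdc25c, a phosphatase that activates Cdk1, read 6.12, 6.25, 6.24, 6.34 and 6.16 in S-Bdc and 6.22, 6.23, 6.21, 6.29 and 6.57 in L-Bdc (-0.08 ± 0.07, adjusted p = 0.661). The limb culture of rat 5 was the highest and the sites overlapped. Cdc25b, of the same family, read 6.24, 6.47, 6.20, 6.22 and 6.15 against 6.41, 6.29, 6.19, 6.28 and 6.40, also overlapping (-0.06 ± 0.07, adjusted p = 0.766).

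Both transcription factors of the set were lower. Foxm1, which drives late cell cycle genes, read 6.52, 6.74, 6.59, 6.44 and 6.31 in S-Bdc and 6.97, 7.0, 7.11, 6.90 and 7.24 in L-Bdc. The sites did not overlap, and the difference was -0.52 ± 0.08 (adjusted p = 0.0038). Mybl2, the gene of B-Myb, read 6.69, 6.75, 6.53, 6.53 and 6.59 against 7.04, 6.85, 6.94, 6.81 and 6.92. It too did not overlap (-0.29 ± 0.06, adjusted p = 0.0097), and its adjusted p was 0.051 without rat 3.

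All 5 measured kinases were lower. Plk1, the Polo-like kinase of spindle assembly and mitotic exit, read 7.68, 7.78, 7.72, 7.32 and 7.33 in S-Bdc and 8.41, 8.37, 8.53, 8.21 and 8.34 in L-Bdc. The lowest limb culture exceeded the highest skull culture, and all 5 pair differences were at or below -0.59, for a mean of -0.81 ± 0.06 (adjusted p = 8.27e-05). Aurkb, the Aurora kinase that corrects faulty kinetochore attachment, read 9.35, 8.87, 8.98, 8.61 and 8.60 against 9.48, 9.34, 9.76, 9.45 and 9.70. Here the skull culture of rat 1 lay just above the limb culture of rat 2, and the pair differences spread from -0.13 in rat 1 to -1.10 in rat 5 (-0.66 ± 0.12, adjusted p = 0.0066). Ttk, the checkpoint kinase Mps1, fell by 0.74 (SE 0.10), Aurka, the centrosomal Aurora kinase, by 0.63 (SE 0.08), and Plk4, which starts centriole duplication, by 0.55 (SE 0.08).

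The 2 measured partners of Aurora B in the chromosomal passenger complex were lower as well. Cdca8 (borealin), whose window is printed above, read 8.44, 8.75, 8.41, 8.19 and 8.13 in S-Bdc and 9.17, 9.35, 9.01, 9.10 and 9.06 in L-Bdc. There was no overlap, and the difference was -0.76 ± 0.06 (adjusted p = 1.23e-04). Incenp, the scaffold of the complex, read 7.0, 7.16, 6.78, 6.87 and 6.95 against 7.45, 7.33, 7.48, 7.30 and 7.29 (-0.41 ± 0.07, adjusted p = 0.00559). Its sites did not overlap either, and its largest pair difference was in rat 3, at -0.70.

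Of the 4 checkpoint members 3 were lower. Mad2l1, the gene of Mad2, which blocks Cdc20 until chromosomes are attached, read 6.44, 6.41, 6.29, 6.20 and 6.19 in S-Bdc and 6.62, 6.70, 6.59, 6.73 and 6.69 in L-Bdc. Each skull culture was below every limb culture (-0.36 ± 0.06, adjusted p = 0.00565). Bub1b, the gene of BubR1, differed by -0.57 ± 0.13 and the kinase gene Bub1 by -0.46 ± 0.12, with adjusted p of 0.0273 and 0.0447. Neither call held under every choice of the rat left out. Bub1 lost its call without rat 2, 3, 4 or 5 (adjusted p of 0.0907, 0.142, 0.157 and 0.0979) and Bub1b without rat 3, 4 or 5 (0.122, 0.12 and 0.0697). The differences without those rats were -0.49, -0.47, -0.44 and -0.32 for Bub1, and -0.52, -0.53 and -0.43 for Bub1b. Bub3, the partner of both, was above background on 0 arrays, where its skull cultures read 5.77, 5.90, 5.93, 5.95 and 5.81 and its limb cultures 5.95, 5.97, 5.87, 5.87 and 5.91.

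The 2 measured genes of anaphase onset were lower. Ube2c, the ubiquitin-conjugating enzyme that works with the anaphase-promoting complex, read 9.08, 9.14, 9.22, 8.77 and 8.57 in S-Bdc and 9.94, 10.08, 9.79, 9.89 and 10.06 in L-Bdc. Every limb value was above every skull value, and its difference of -0.99 ± 0.11 (adjusted p = 4.84e-04) was the lowest of the 42. Cdc20, the activator of that complex, read 8.98, 9.57, 8.96, 8.55 and 8.59 against 9.67, 9.52, 9.49, 9.53 and 9.43. In rat 2 its skull culture stood at the level of the limb cultures (pair difference 0.05), and in the other rats it was below them (-0.60 ± 0.12, adjusted p = 0.0149). The adjusted p of Cdc20 was 0.0554, 0.07 and 0.0584 without rat 3, 4 or 5.

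**Figure D2:**
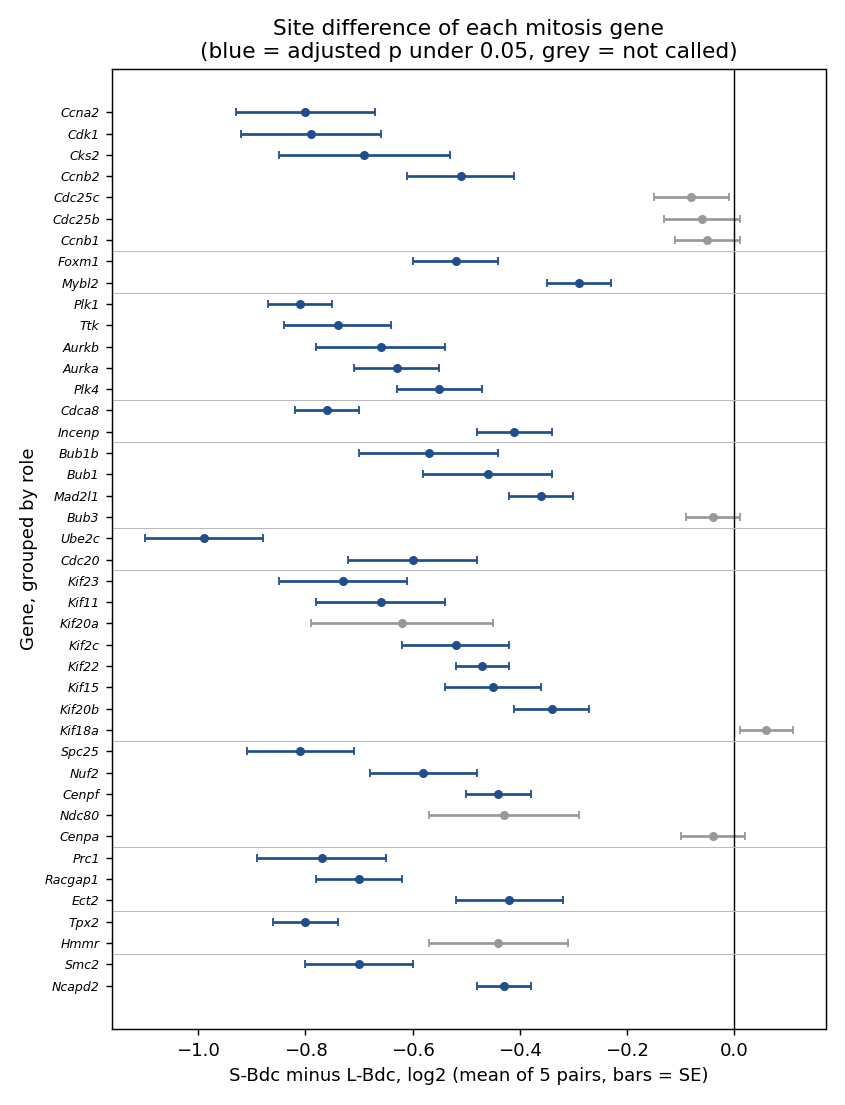
Mean log2 difference over 5 pairs, S-Bdc minus L-Bdc, of each of the 42 measured members with limma's moderated standard error. Genes are grouped by role and coloured by whether the adjusted p was under 0.05. The 33 called members lie between -0.99 for Ube2c and -0.29 for Mybl2, and 6 of the 9 grey members lie within 0.08 of 0.

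Among the kinesins, the microtubule motors, 6 of 8 were lower. Kif22, a motor on chromosome arms, read 9.51, 9.47, 9.42, 9.07 and 9.10 in S-Bdc and 10.04, 9.86, 9.81, 9.53 and 9.71 in L-Bdc. The lowest limb value, 9.53 in rat 4, was just above the highest skull value, 9.51 in rat 1. Within rats the differences were even, from -0.39 to -0.61, with a mean of -0.47 ± 0.05 (adjusted p = 4.89e-04). Kif23, a motor of the central spindle, fell by 0.73 (SE 0.12) and Kif11, which pushes the spindle poles apart, by 0.66 (SE 0.12). A dimmer probe of Kif11 differed by -0.31 ± 0.08 (adjusted p = 0.048). Kif2c, which takes microtubules apart at centromeres, fell by 0.52 (SE 0.10), Kif15, a spindle motor, by 0.45 (SE 0.09) and Kif20b, a motor of cytokinesis, by 0.34 (SE 0.07). Without rat 3 the adjusted p of Kif2c was 0.0614, of Kif15 0.0763 and of Kif20b 0.0638. Without rat 4 it was 0.0772 for Kif15 and 0.0519 for Kif20b, and without rat 5 it was 0.0603 for Kif15.

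Kif20a, a motor needed for cytokinesis, was not called. It read 9.82, 9.39, 9.04, 8.93 and 8.78 in S-Bdc and 9.73, 9.68, 9.63, 9.91 and 10.12 in L-Bdc. The skull culture of rat 1 lay above 3 of the limb cultures, and the other 4 skull cultures lay below all of them. The pair differences ran from 0.09 in rat 1 to -1.34 in rat 5, for a mean of -0.62 ± 0.17 (adjusted p = 0.0524). Kif20a was called lower under 6 of 16 alternatives, with an adjusted p of 0.00358 without rat 1, and its adjusted p ranged from 0.00358 to 0.445 over them. Kif18a, which damps chromosome movements, was above background on 0 arrays (skull cultures 5.87, 5.90, 5.90, 5.87 and 5.77, limb cultures 5.71, 5.81, 5.76, 5.96 and 5.75).

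The kinetochore had 3 of 5 members lower. Spc25 read 8.84, 9.04, 8.61, 8.38 and 8.26 in S-Bdc and 9.36, 9.52, 9.66, 9.28 and 9.38 in L-Bdc. It belongs to the Ndc80 complex, which grips microtubule ends, and its sites did not overlap (-0.81 ± 0.10, adjusted p = 8.43e-04). Nuf2, of the same complex, fell by 0.58 (SE 0.10), and Cenpf, a large protein of the outer kinetochore, by 0.44 (SE 0.06). Ndc80 read 8.03, 8.44, 7.92, 7.76 and 7.51 against 8.24, 8.22, 8.53, 8.45 and 8.39. Only the skull culture of rat 2 reached the limb values, and Ndc80 was not called (-0.43 ± 0.14, adjusted p = 0.0911). It was called under 4 of 16 alternatives (adjusted p from 0.00756, without rat 2, to 0.531). Cenpa, the centromeric histone, read 5.97, 5.85, 6.11, 6.02 and 5.98 against 5.97, 6.13, 6.08, 6.03 and 5.92, with its probe above background on 1 limb array only.

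All 3 measured genes of the midzone and cytokinesis were lower. Racgap1, which with Kif23 forms the centralspindlin complex, read 7.32, 7.37, 7.02, 7.01 and 6.69 in S-Bdc and 7.82, 7.80, 7.86, 7.72 and 7.70 in L-Bdc. The limb values were close together and all above the skull values (-0.70 ± 0.08, adjusted p = 7.25e-04). Ect2, the exchange factor that activates RhoA at the cleavage furrow, read 8.16, 7.99, 7.69, 7.60 and 7.52 against 8.20, 8.23, 8.15, 8.06 and 8.41. Its skull culture of rat 1 was at the level of the limb cultures (pair difference -0.03), and the mean was -0.42 ± 0.10 (adjusted p = 0.033). Without rat 3, 4 or 5 that adjusted p was 0.125, 0.122 and 0.0664. Prc1, which bundles the midzone microtubules, fell by 0.77 (SE 0.12) with no overlap.

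Of the 2 spindle assembly members, Tpx2, which activates Aurora A and seeds microtubules, was lower. It read 8.76, 8.91, 8.93, 8.58 and 8.63 in S-Bdc and 9.49, 9.71, 9.53, 9.54 and 9.55 in L-Bdc. The pairs were alike and far apart by site (-0.80 ± 0.06, adjusted p = 6.93e-05). Hmmr, a spindle and hyaluronan-binding protein, read 8.15, 8.19, 7.94, 7.66 and 7.56 against 8.26, 8.19, 8.28, 8.41 and 8.57. Both cultures of rat 2 read the same, the skull cultures of rats 4 and 5 were the lowest of the 10, and Hmmr was not called (-0.44 ± 0.13, adjusted p = 0.0786). Under 7 of 16 alternatives it was called, with adjusted p of 0.0312 and 0.0395 without rat 1 or 2, in a range from 0.0155 to 0.508.

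Both measured condensin genes, which compact the mitotic chromosome, were lower. Ncapd2 read 7.0, 7.08, 6.89, 6.89 and 6.77 in S-Bdc and 7.56, 7.44, 7.28, 7.43 and 7.08 in L-Bdc. Its limb culture of rat 5 tied with the skull culture of rat 2, yet within each rat the skull culture was lower, with pair differences of -0.31 to -0.56 (-0.43 ± 0.05, adjusted p = 0.00108). Smc2, the core ATPase, read 8.56, 8.55, 8.14, 8.17 and 8.02 against 8.78, 9.15, 8.93, 9.06 and 9.02. Its sites did not overlap (-0.70 ± 0.10, adjusted p = 0.00203).

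The size of the difference varied between the 5 pairs. Over the 42 members the median pair difference was -0.285, -0.29, -0.585, -0.678 and -0.92 in rats 1 to 5, while that of all probes lay between -0.003 and 0.002 in each rat. The number of members with the lower signal in S-Bdc was 37, 35, 36, 40 and 40. The value of rat 1 depended on scaling. With median scaling the medians of the 5 rats were -0.100, -0.395, -0.552, -0.644 and -1.071, with 26 members lower in rat 1. Without normalisation they were -0.044, -0.452, -0.543, -0.607 and -1.097, with 24 members lower in rat 1, where the median of all probes was 0.077. The lowest pair difference was that of Ube2c in rats 1 and 2 (-0.85 and -0.94), Spc25 in rat 3 (-1.05), Ccna2 in rat 4 (-1.16) and Cks2 in rat 5 (-1.61). Rat 5 had the lowest pair difference in 29 of the 42 members, against 20.6% of all probes. In 32 members the differences of both rats 4 and 5 were below those of both rats 1 and 2, against 18.2% of all probes. Without normalisation this held in 25 members, and the share of all probes was not counted there. With 1 culture per rat and site, no test of a difference between rats could be made. These counts describe the 5 animals, and the members share their arrays.

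**Figure D3:**
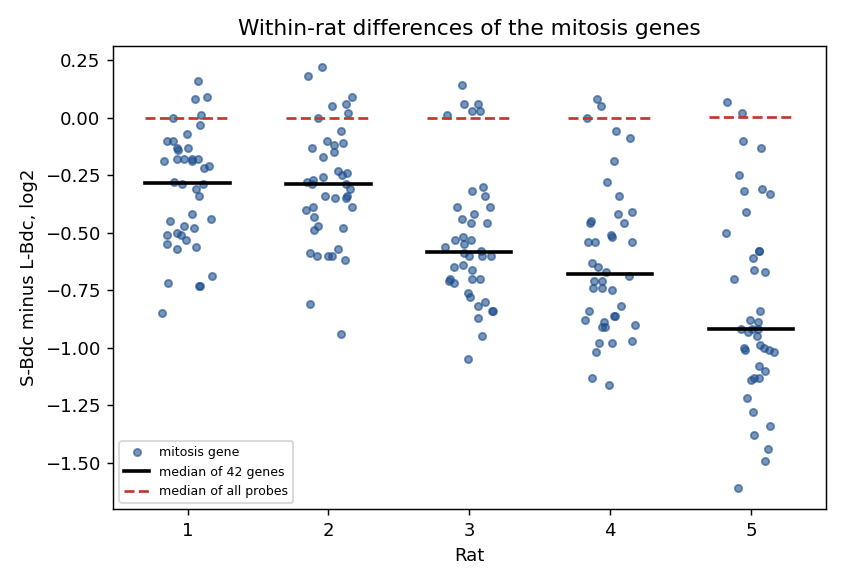
Log2 difference, S-Bdc minus L-Bdc, within each of the 5 rats (x axis), with 1 point for each of the 42 members, a black line at their median and a dashed red line at the median of all probes. The black lines lie at -0.285, -0.29, -0.585, -0.678 and -0.92, and the red lines at about 0.

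The unequal pairs went with the skull cultures more than with the limb cultures. As the median over members of the deviation from each gene's own mean, the S-Bdc arrays of rats 1 to 5 stood at -0.076, -0.015, -0.26, -0.431 and -0.564, and the L-Bdc arrays at 0.239, 0.27, 0.277, 0.237 and 0.323. The range was 0.549 among skull cultures and 0.086 among limb cultures, and the sites did not overlap. The skull culture of rat 5 was the lowest of its site in 30 members, and that of rat 2 the highest in 23. The SD over rats was larger in S-Bdc in 39 of 42 members, against 50.8% of all probes and 53.5% of those above background on at least 3 arrays, with a median SD of 0.255 for skull and 0.13 for limb cultures (0.0883 and 0.0892 over all probes). The evenness of the limb cultures depended on scaling. With no normalisation between arrays the range was 0.615 among skull and 0.393 among limb cultures, and with median scaling 0.595 and 0.331. Raw median signals of the arrays, which the scaling acts on, were 46.5, 40.6, 45.5, 48.1 and 46.1 in S-Bdc and 42.9, 43.8, 44.8, 44.8 and 47.1 in L-Bdc. Their part in these ranges was not tested beyond the scalings named.

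**Figure D4:**
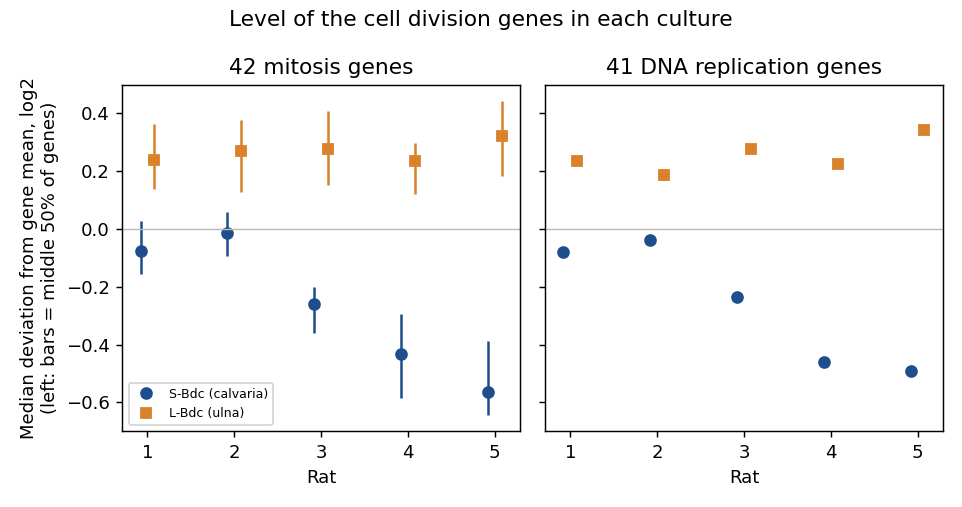
Median over 42 mitosis genes (left, with bars for the middle 50% of the genes) and over 41 DNA replication genes (right) of the deviation of the log2 signal from each gene's mean, for the S-Bdc and L-Bdc array of each rat. The skull cultures span -0.564 to -0.015 on the left and the limb cultures 0.237 to 0.323, with the same order of high and low skull cultures on the right.

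Other genes of cell division were set beside these from lists not trimmed by their values. Of 38 further mitosis genes 28 were lower and 0 higher, with a median of -0.49. The lowest adjusted p were those of Cks1b, a Cdk1 subunit (-0.80 ± 0.07), and Ska2, of the complex that follows microtubule ends (-0.74 ± 0.07). Of 41 DNA replication genes 32 were lower and none was higher, their median was also -0.49, and the list was led by the flap endonuclease Fen1 (-0.94 ± 0.08) and the licensing inhibitor Gmnn (-0.89 ± 0.08). The skull cultures lay in the same places for replication as for mitosis, at -0.079, -0.039, -0.236, -0.459 and -0.492 in rats 1 to 5. At an unadjusted p under 0.05, 0 genes of either list were higher.

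Further parts of the same machines were counted as well. Of 13 subunits and partners of the anaphase-promoting complex 5 were lower (median -0.14), the 2 of lowest adjusted p being the chain-building enzyme Ube2s (-0.74 ± 0.06) and the core subunit Cdc27 (-0.34 ± 0.06). Of 15 other centromere and kinetochore genes 4 were lower, with Cenpt at -0.69 ± 0.08, and 1 was higher, Nsl1 of the Mis12 complex at 0.62 ± 0.09 (adjusted p = 0.00191). Of 8 cohesin genes 2 were lower, Smc1a (-0.29 ± 0.07) and Pds5b (-0.21 ± 0.05). Among 11 genes of the phosphatases of mitotic exit 2 were lower, Ppp1ca (-0.35 ± 0.06) and Arpp19 (-0.36 ± 0.07). The differences in share between these lists and the 42 members were not tested.

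Among genes that act before S phase or restrain the cycle, calls were higher in S-Bdc in all but 1 gene, and the G1 list had none. Of 7 G1 cyclins and their kinases 0 were called, with 3 lower and 0 higher at an unadjusted p under 0.05. Ccnd1, the gene of cyclin D1, read 10.87, 10.83, 10.61, 10.24 and 10.33 in S-Bdc and 10.82, 10.96, 11.08, 10.91 and 11.51 in L-Bdc (-0.48 ± 0.15, adjusted p = 0.0847), and Cdk6 differed by -0.21 ± 0.06 (adjusted p = 0.078). Of 7 E2F and DREAM genes 2 were higher and 0 lower (2 at an unadjusted p under 0.05). The higher genes were Rbl2, the pocket protein p130 of the DREAM complex (0.34 ± 0.05, adjusted p = 0.00206), and Tfdp2, an E2F partner (0.32 ± 0.06, adjusted p = 0.00901). Of 16 CDK inhibitors and arrest genes 4 were higher and 1 lower. Gadd45a, a stress gene that restrains Cdk1, differed by 1.47 ± 0.07, the p53 target Ccng1 by 0.94 ± 0.07, Cdkn1a, the gene of the inhibitor p21, by 0.47 ± 0.07, and Sesn1, a stress-induced sestrin, by 0.24 ± 0.06. Cdkn1a read 7.11, 7.34, 7.68, 7.38 and 7.64 in S-Bdc and 6.80, 7.03, 7.04, 6.97 and 6.94 in L-Bdc, with no overlap. The gene that fell was Btg1, an antiproliferative factor (-0.60 ± 0.06). Of 14 reference genes 0 were lower (2 at an unadjusted p under 0.05) and 2 higher, Gusb (0.23 ± 0.06) and Sdha (0.19 ± 0.05).

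**Figure D5:**
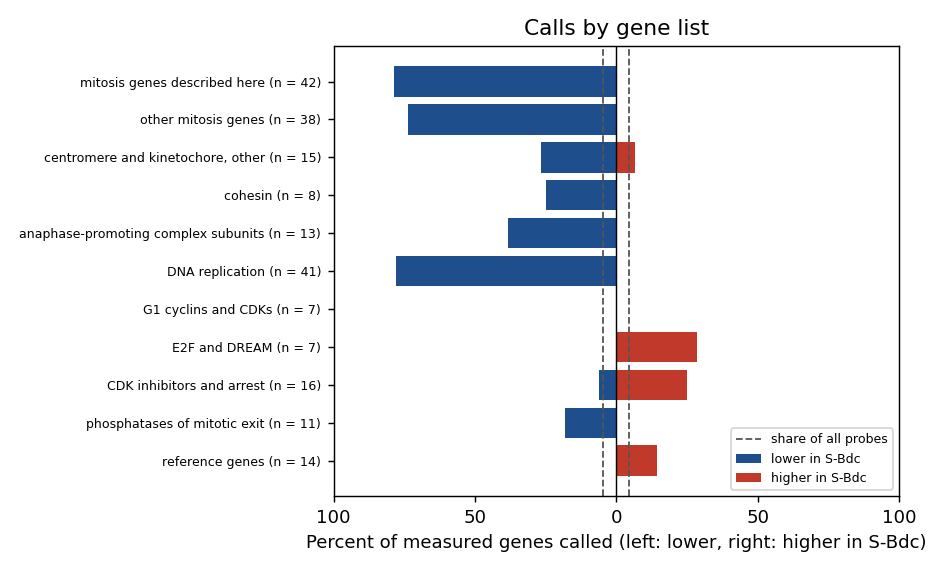
Percent of the measured genes of each list that were called lower (bars to the left) or higher (bars to the right) in S-Bdc at an adjusted p under 0.05, with dashed lines at 4.68% and 4.43%, the shares of all probes called in each direction. The lists of mitosis and DNA replication have the longest bars to the left and none to the right, with 33 of 42, 28 of 38 and 32 of 41 genes lower.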

How the data were processed

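RNA of 10 cultures was hybridised to 10 arrays, 1 per culture. The deposited raw table holds average bead signals, an intensity on a linear scale that the authors exported from BeadStudio without normalisation. The authors' deposited value table gives the same arrays as processed intensities, whose settings the sources used here do not state. These values appear background subtracted and scaled to 1 distribution. Rows of both tables were paired by their ranks over the arrays. Every one of the 22517 raw rows found 1 partner in both directions (rank distance at most 0.264%), and 6 value rows without a raw row were left out. Gene names come from the platform annotation, in which 13787 probes carry a symbol and 8730 none.

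Raw signals were corrected by normexp (offset 50), taken to log2, quantile normalised and fitted in limma 3.58.1 (R 4.3.3) by lmFit and eBayes with terms for rat and site. Cultures were paired by the animal named in the labels. Benjamini-Hochberg adjustment ran over 22517 probes, with 0.05 as the threshold. The background limit was 8.514 units of the processed table, from the mirror of its values at or below 0. On simulated data with 200 changed probes of 22517, 98% of 2-fold and 45% of 1.4-fold changes were recovered with 5 false calls, and a simulated log2 change of 1 came out at a median of 0.688. The changed probes were drawn from those above background on all arrays. The simulation held no differences between rats or in array scaling, so these rates do not cover dim probes or the effect of scaling. The number of arrays limits the precision. Replicates are separate animals.

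Members and lists were chosen with earlier results of these data known, so their counts are descriptions. Values were given in full for the members with the lowest and the highest adjusted p of each role and for members not called. From each other list the genes of lowest adjusted p or opposed direction were named with their difference. In those lists array values were printed only for Ccnd1 and Cdkn1a. Cdkn1a and Sesn1 were named outside that rule. Other values were given for members at large. Promoter windows are RefSeq's (GRCr8), matched by gene identifier, or else by symbol, for 35 of 42 members. Alternatives were no block, other scalings and background corrections, the processed table, a filter on dim probes, averaged probes, a variance trend and leaving out each rat.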

Additional observations from a re-analysis of the deposited data

Results flagged for a closer look

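In 6 of 86 groups of 5 arrays, taken over the 42 members and their median at each site, 1 array stood apart from the other 4 by more than 0.71 of the group's whole range. Chance gives about 1 such group in 20. Cks2, the Cdk1 subunit, was high in the limb culture of rat 5, at 11.36 against 10.87 to 10.99 in the others (gap over range 0.756), the same rat in which its pair difference was -1.61. Cdc25c was high in that limb culture too, at 6.57 against 6.21 to 6.29 (0.788). Tpx2 was high in the limb culture of rat 2, at 9.71 against 9.49 to 9.55 (0.755). In the skull cultures, Plk4 was high in rat 1, at 7.17 against 6.64 to 6.76 (0.762), and Cdc25b in rat 2, at 6.47 against 6.15 to 6.24 (0.734). Kif18a was low in the skull culture of rat 5, at 5.77 against 5.87 to 5.90 (0.763), where its probe was not above background on any array.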

How the results depend on the processing

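The median of the 42 members stayed below 0 under every alternative tried, from -0.76 to -0.45, and 0 members were called higher under any of them. Without the block for the pairing by rat, 32 members were called lower in place of 33: Ccnb2, Bub1 and Kif20b lost their calls (adjusted p = 0.0942, 0.0524 and 0.0553), and Kif20a and Hmmr were called (0.0358 and 0.0377). Without normalisation between arrays, 13 members and 33 genes of the other lists were called, against 33 and 83, and the spread between rats (the range of the pair medians) was 1.05 in place of 0.64. With median scaling, 22 members and 52 genes of the other lists were called and that range was 0.97. Members lower in all 5 rats numbered 21 with median scaling and 20 without normalisation, and 30 under each other alternative that kept all 5 rats. From the processed intensities, 10 members and 25 other genes were called after adding 50 units, and 5 and 7 with a floor of 16 units and quantile normalisation. Over all probes the share of lower among called was 51.4%, and 41% without normalisation, 44.1% with median scaling and 40.2% with the floor. Of the 22517 probes 1053 were called lower, and 357 without normalisation, 559 with median scaling, 353 after adding 50 units and 84 with the floor. Without the block 997 probes were called lower, and with each rat left out 652 to 1138. Leaving out each rat gave 24 to 35 members called lower, medians of -0.62 to -0.45, 30 to 33 members lower in every rat left, 67 to 88 other genes called and a spread between rats of 0.39 to 0.65. The last was 0.39 without rat 5. Of the 33 called members 24 kept the call whichever rat was left out, and 5 (Plk1, Cdca8, Kif22, Tpx2 and Ncapd2) under every alternative tried. Signs turned for Kif18a (-0.01 from processed intensities plus 50 units, adjusted p = 0.802) and Cenpa (0.02 without rat 2, adjusted p = 0.911, and -0.06 to 0.02 over the rats left out), neither called. The cause of these shifts was not tested. Probes near background limit what can be said of Bub3, Ccnb1, Kif18a and Cenpa, and an offset on the log scale understates dim genes.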
